A study of Mus musculus with 36 samples.

Results

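The suprachiasmatic nucleus (SCN) of mice on a high-fat diet was compared between ZT 20, late in the night, and ZT 8, late in the day, across all measured genes. ZT (Zeitgeber time) counts hours from lights on. The comparison uses every library that the labels give for high-fat diet at these times, 3 at ZT 8 and 3 at ZT 20, which is 6 of the 36 libraries of the series. The study sequenced SCN-enriched tissue of adult C57BL/6J mice on 2 diets, normal chow and high-fat, at 6 times of day with 3 libraries each. Both groups compared here share the strain, the diet and its 10 weeks of feeding, and differ in the time of day. No genetic change or drug is named for any group. Whether a library stands for its own animal or for a pool is not given in the labels, so p-values measure only the spread between libraries of a group. In the main fit this spread is taken over all 18 high-fat libraries, at all 6 times of day.

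The SCN is the light-entrained pacemaker of the mammalian brain. In its neurons CLOCK and BMAL1 (Arntl) bind E-box sequences and switch on the period and cryptochrome genes, whose proteins return to the nucleus and repress CLOCK and BMAL1. The REV-ERB receptors (Nr1d1, Nr1d2) form a second loop that represses Arntl, and PAR bZIP factors such as DBP carry the rhythm to further genes. Body temperature and feeding are also rhythmic in mice, and transcripts of heat shock chaperones, cold-inducible RNA-binding proteins and lipid enzymes are known to follow such systemic cues.

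Values are FPKM (fragments scaled by transcript length and by library total), rescaled so that each library sums to 1000000, and differences are on the scale log2(value + 1), ZT 20 minus ZT 8, which understates the change of low genes. The tissue carried SCN transcripts: Avp, the vasopressin gene, was at 1809, 234 and 1459 at ZT 8 and 2024, 1885 and 3604 at ZT 20, and Six6, a transcription factor gene needed to form the SCN, was at 4.29, 1.22 and 1.5, then 3.67, 4.85 and 4.63. Neighbouring tissue was present as well, since Oxt, the oxytocin gene of the paraventricular and supraoptic nuclei, was at 2782, 372 and 2009 and then at 2953, 2501 and 4223. In ZT 8 replicate 2, Avp, Oxt and Six6 each stood lowest of the 6 libraries. This library and ZT 20 replicate 3 lay furthest apart, with a correlation of 0.909 across genes against 0.942 to 0.974 for the other pairs. The median correlation with the other high-fat libraries was 0.942 for ZT 8 replicate 2 and 0.959 for ZT 20 replicate 3. It was 0.948 for ZT 16 replicate 3 and 0.954 for ZT 0 replicate 3. ZT 8 replicate 2 and ZT 20 replicate 3 also differed in the balance of short and long transcripts. Tested genes were put into 4 bins of equal size by the length of their longest annotated transcript. In the bin of the longest transcripts, the median deviation from the mean of the 18 high-fat libraries was 0.46 (log2) in ZT 8 replicate 2 and -0.46 in ZT 20 replicate 3, while in the shortest bin it was -0.15 and 0.10. In the other 4 libraries the longest bin stood between -0.04 and 0.18. Counts and differences are therefore given with all 6 libraries and, where these libraries moved them, without ZT 8 replicate 2 and without both. In bulk tissue, fewer cells of a type and less RNA per cell cannot be told apart.

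**Figure D1:**
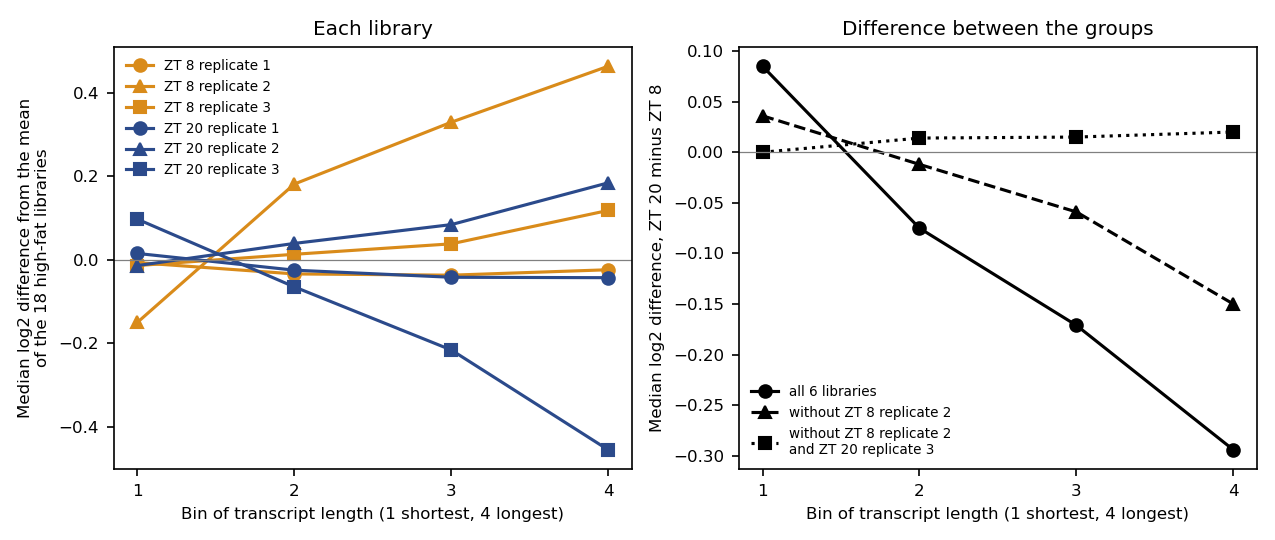
Median log2 differences in 4 equal bins of tested genes ordered by longest annotated transcript (x axis), for each library against the mean of the 18 high-fat libraries (left) and for ZT 20 minus ZT 8 (right). Points are medians over genes; ZT 8 replicate 2 and ZT 20 replicate 3 run in opposite directions, and without both the 4 medians of the difference lie between 0 and 0.02.

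No gene differed between ZT 20 and ZT 8 at an adjusted p under 0.05 among the 15106 tested (limma with Benjamini-Hochberg adjustment). The smallest adjusted p was 0.228, for Dbp. At an unadjusted p under 0.05 there were 1814 genes (12.0%), of which 493 (3.26%) were higher and 1321 (8.74%) lower at ZT 20. In 572 genes (3.79%) all 3 ZT 20 libraries stood above all 3 ZT 8 libraries, and in 816 (5.40%) all stood below. Genes named below for their small p gain no support from a lack of overlap. The median difference over all tested genes was -0.13, with 4648 genes positive and 10432 negative, whereas median-of-ratios scaling puts that median at 0. List medians are to be read against this value, or against the all-gene median of the fit without libraries.

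These counts rested on the 2 libraries. Without ZT 8 replicate 2, limma called 0 genes, 303 (2.01%) had an unadjusted p under 0.05, 152 (1.01%) higher and 151 (1.0%) lower, and the all-gene median was -0.045. The non-overlapping genes were then 1042 (6.90%) above and 1035 (6.85%) below. Without both libraries, limma called 0 genes, 196 (1.30%) had an unadjusted p under 0.05, 118 (0.781%) higher and 78 (0.516%) lower, and the median was 0.01. The lower genes were mostly long: with all 6 libraries, 583 of the 3627 genes in the longest bin were lower at an unadjusted p under 0.05 and 9 higher, against 71 lower and 323 higher of the 3629 in the shortest.

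No clock gene passed the adjusted threshold. By value, 9 of 9 clock repressors and 3 of 4 PAR bZIP or Nfil3 genes were lower at ZT 20, with 6 and 2 of them at an unadjusted limma p under 0.05, beside 8.74% of all genes. Without both libraries 1 of each group was lower at that p, beside 0.516% of all genes, and Nfil3 was higher. The transcripts with the smallest p in the whole comparison included Dbp, the D-box activator (chromosome 7, 45705088 to 45710203, GRCm38), at 100, 82.8 and 83.6 at ZT 8 and 41.0, 40.4 and 48.6 at ZT 20. All 3 ZT 20 libraries lay well below the lowest ZT 8 library. The log2 difference was -1.02 (SE 0.16, limma adjusted p = 0.228), or -1.07 without ZT 8 replicate 2 and -1.15 without both libraries, so that Dbp kept its size however these libraries were treated. Nr1d1, which encodes REV-ERB alpha (chromosome 11, 98767932 to 98775333), was at 99.7, 130 and 95.9 and then at 74.5, 79.2 and 70.8. Its groups did not overlap either, with a difference of -0.52 (SE 0.10, limma adjusted p = 0.373), or -0.38 without ZT 8 replicate 2 and -0.34 without both.

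Ciart, a repressor of CLOCK and BMAL1 also called Chrono (chromosome 3, 95878503 to 95882251), was at 16.5, 24.0 and 15.9 at ZT 8 and 10.5, 11.5 and 11.6 at ZT 20. The 3 ZT 20 values lay close together and below every ZT 8 value, and the difference was -0.68 (SE 0.17), or -0.49 without ZT 8 replicate 2 and -0.52 without both. Ciart and Per1 are shown here by their promoter sequence because an E-box lies in the 300-base window around their RefSeq start (250 bases before to 50 after, GRCm38.p6, sense strand of the gene). Capitals mark CACGTG, the canonical E-box, which reads the same on both strands. In Ciart (chr3:95882179-95882478, minus strand) 3 copies begin 116, 58 and 44 bases before the start, and in Per1 (chr11:69098699-69098998, plus strand) 1 copy begins 166 bases before it.
Ciart: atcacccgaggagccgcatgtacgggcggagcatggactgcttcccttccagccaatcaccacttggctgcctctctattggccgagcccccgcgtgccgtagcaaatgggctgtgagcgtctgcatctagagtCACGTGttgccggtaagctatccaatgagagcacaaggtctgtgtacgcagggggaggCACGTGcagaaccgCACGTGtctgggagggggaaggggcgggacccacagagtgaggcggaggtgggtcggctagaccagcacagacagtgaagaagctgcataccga
Per1: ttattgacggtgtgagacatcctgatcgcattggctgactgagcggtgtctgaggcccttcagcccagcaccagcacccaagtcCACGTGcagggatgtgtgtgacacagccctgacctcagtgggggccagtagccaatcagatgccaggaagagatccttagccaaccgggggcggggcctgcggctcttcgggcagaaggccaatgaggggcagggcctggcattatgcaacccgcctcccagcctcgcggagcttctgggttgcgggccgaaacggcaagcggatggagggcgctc
The motif was in a window of 5 of the 24 core clock genes with an entry in the table (20.8%; Bhlhe41, Ciart, Cry1, Per1 and Tef), against 8.09% of all 27025 genes with one. These are letter matches, and no match says only that CACGTG is not in that window.

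Among the other repressors, Per2 was at 14.9, 18.2 and 13.7 and then at 10.1, 12.8 and 8.08, a difference of -0.56 (SE 0.17). Per1 was at 29.6, 38.5 and 25.9 and then at 22.4, 24.9 and 19.2, a difference of -0.47 (SE 0.18). Neither pair of groups overlapped. The differences without ZT 8 replicate 2 were -0.45 for Per2 and -0.32 for Per1, and without both libraries -0.30 and -0.22. Bhlhe40 and Bhlhe41, which encode the E-box repressors DEC1 and DEC2, differed by -0.45 and -0.36, by -0.22 and -0.20 without ZT 8 replicate 2, and by -0.18 and -0.16 without both libraries. Cry2 differed by -0.29 and Per3 by -0.39, or by -0.20 and -0.29 without ZT 8 replicate 2 and -0.14 and -0.16 without both. Cry1, at 20.0, 20.5 and 19.5 and then 19.0, 19.5 and 16.0, differed by -0.14 (SE 0.11), with a sign that depended on the scaling. All 9 repressors were negative, 6 of them below with no overlap, beside 5.40% of all genes. All 9 were still negative without both libraries, when 1 had an unadjusted limma p under 0.05, beside 0.516% of all genes lower.

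Hlf, a second PAR bZIP gene, was at 49.5, 64.1 and 42.2 and then at 37.0, 37.7 and 25.7, a difference of -0.62 (SE 0.20), or -0.46 without ZT 8 replicate 2 and -0.28 without both libraries. Nfil3, which encodes a repressor at the D-boxes that DBP activates, went the other way by value, from 7.70, 9.89 and 6.85 to 9.08, 9.65 and 11.8, a difference of 0.30 (SE 0.14), or 0.43 without ZT 8 replicate 2. Arntl was at 12.7, 22.3 and 13.9 and then at 18.1, 19.9 and 14.6. Its highest value was in ZT 8 replicate 2, so the difference was 0.13 (SE 0.16) with all 6 libraries, 0.37 (SE 0.12) without that library and 0.49 (SE 0.10, limma adjusted p = 1) without both. Without ZT 8 replicate 1 it turned to -0.015. Its dimer partner gene Clock, with a difference of -0.41 (SE 0.22), and Npas2, with -0.24 (SE 0.36), turned positive without both libraries, at 0.04 and 0.27. The REV-ERB beta gene Nr1d2 differed by -0.37 (SE 0.13), by -0.30 without ZT 8 replicate 2 and by -0.11 without both libraries.

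**Figure D2:**
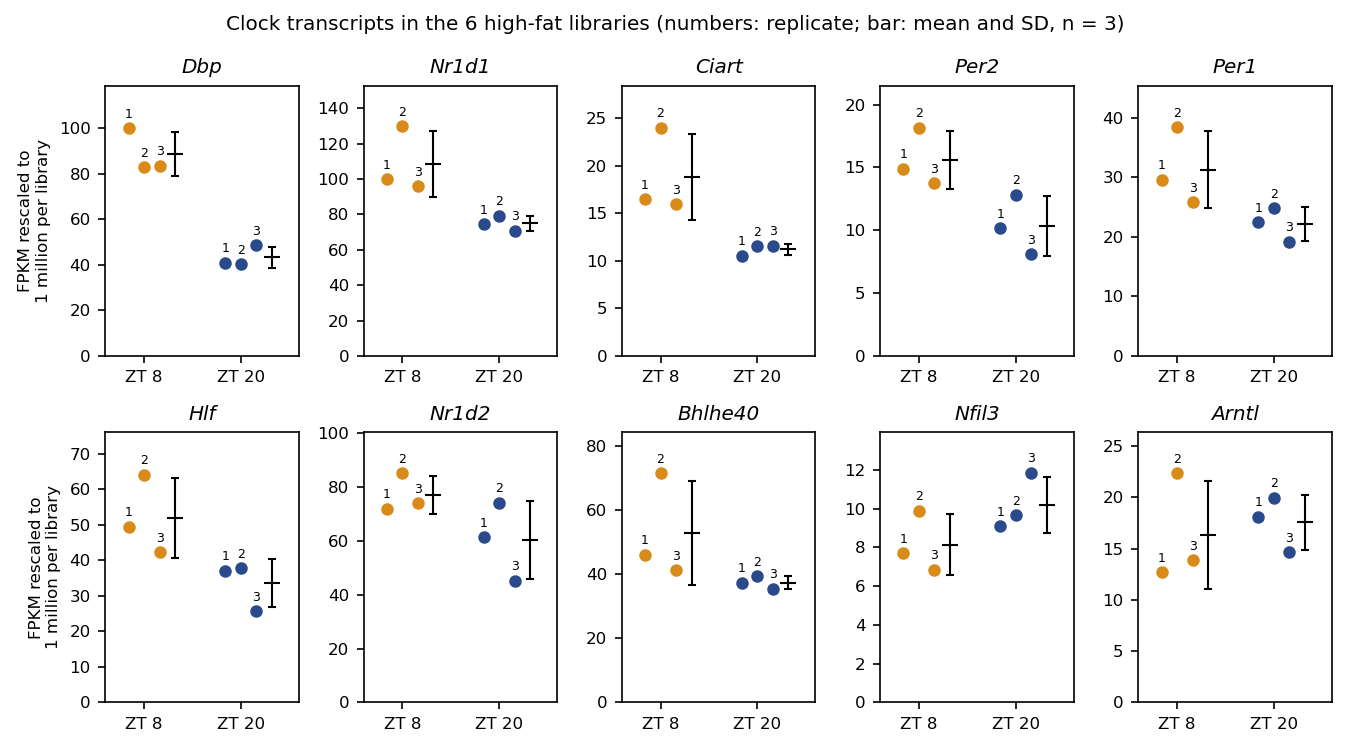
Rescaled FPKM (y axis, linear from 0) of 10 clock transcripts in the 3 libraries of ZT 8 (orange) and of ZT 20 (blue); numbers give the replicate and black bars the mean and SD. For Dbp, Nr1d1, Ciart, Per2, Per1, Hlf and Bhlhe40 no ZT 20 library reaches the lowest ZT 8 library, and replicate 2 is the highest ZT 8 library in every panel but Dbp.

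Over the 30 core clock genes, all tested, 27 were negative and 3 positive, with a median of -0.33 beside -0.13 for all genes. At an unadjusted p under 0.05, 12 were lower and 0 higher, beside 8.74% and 3.26% of all genes. In 10 the times did not overlap, all below, beside 5.40% of all genes. Without ZT 8 replicate 2, 24 were negative and the median was -0.20 beside -0.045. In that fit 5 were lower and 2 higher (Arntl and Nfil3) at that p, beside 151 lower and 152 higher of all 15107 genes. Without both, 18 were negative and the median was -0.04 beside 0.01, with 3 lower and 2 higher, beside 0.516% and 0.781% of all genes. The activators moved with these libraries, with 3 of 4 negative at first and 0 of 4 without both (medians -0.18 and 0.17), as did the kinase, ligase and protease genes, with 8 of 8 negative at first and 3 of 8 without both (medians -0.18 and 0.04). Among the latter Usp2, a deubiquitinase gene, was at 18.6, 24.4 and 17.4 and then 13.6, 13.3 and 13.0, with no overlap. Its difference was -0.55 (SE 0.20) with all libraries, -0.41 without ZT 8 replicate 2 and -0.40 without both. Fbxl21, which encodes a ligase subunit for cryptochromes, differed by -0.55 (SE 0.25), with its lowest value, 5.98, in ZT 20 replicate 3, and by -0.16 without both libraries.

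Transcripts of endoplasmic reticulum (ER) chaperones made up several of those with the smallest p among the higher genes. Sdf2l1, which encodes an ER protein that assists the J-domain cochaperones (chromosome 16, 17130138 to 17132383), was at 22.2, 15.1 and 22.1 and then at 30.1, 31.3 and 37.7. Manf, the gene of a secreted neurotrophic factor that is retained in the ER (chromosome 9, 106838312 to 106891979), was at 46.9, 35.7 and 44.5 and then at 57.6, 55.7 and 64.9. Creld2, a folding factor gene (chromosome 15, 88819646 to 88826683), was at 25.7, 25.3 and 23.7 and then at 32.8, 33.6 and 42.1. Hspa5, which encodes the ER HSP70 BiP (chromosome 2, 34771970 to 34777547), was at 321, 334 and 338 and then at 394, 438 and 428. In each of these 4 genes every ZT 20 library exceeded every ZT 8 library, and the highest value was in ZT 20 replicate 3, or for Hspa5 in replicate 2. These genes were picked by their small p, so the lack of overlap adds no support. Of all genes, 3.79% stood above with no overlap. The differences were 0.73 (SE 0.16) for Sdf2l1, 0.48 (SE 0.11) for Manf, 0.51 (SE 0.13) for Creld2 and 0.34 (SE 0.11) for Hspa5, each with a limma adjusted p of 0.373. They were, without ZT 8 replicate 2, 0.55, 0.37, 0.52 and 0.35, and without both libraries 0.45, 0.30, 0.41 and 0.34.

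The promoters of Creld2 and Hspa5 are shown because both hold the ER stress response element in the same 300-base window. Capitals mark CCAAT and CCACG with 9 bases of any kind between them, searched on both strands. In Creld2 (chr15:88819396-88819695, plus strand) the match is on the reverse strand and its first base in the line below lies 126 bases before the start. In Hspa5 (chr2:34771840-34772139, plus strand) it is on the forward strand, 65 bases before.
Creld2: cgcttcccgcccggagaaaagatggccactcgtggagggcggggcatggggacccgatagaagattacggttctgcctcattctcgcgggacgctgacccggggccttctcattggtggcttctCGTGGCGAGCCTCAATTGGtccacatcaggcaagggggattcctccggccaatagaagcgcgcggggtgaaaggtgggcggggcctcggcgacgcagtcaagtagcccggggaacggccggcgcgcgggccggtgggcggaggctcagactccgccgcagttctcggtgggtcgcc
Hspa5: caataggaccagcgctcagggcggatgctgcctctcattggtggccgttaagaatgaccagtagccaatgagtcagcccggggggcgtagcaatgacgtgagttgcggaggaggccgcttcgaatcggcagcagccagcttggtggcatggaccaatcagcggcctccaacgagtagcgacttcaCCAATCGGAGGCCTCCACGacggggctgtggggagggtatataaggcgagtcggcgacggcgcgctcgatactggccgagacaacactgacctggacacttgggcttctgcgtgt
It was in a window of 9 of the 24 genes of the ER list with an entry (37.5%), against 0.137% of all genes. The 9 are Calr, Canx, Creld2, Derl3, Dnajc3, Hsp90b1, Hspa5, Pdia6 and Syvn1. Such a match does not show that a factor was bound.

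Of the 18 ER chaperones and folding enzymes, 9 were positive, with a median of -0.02 beside -0.13 for all genes. At an unadjusted p under 0.05, 5 were higher and 0 lower, beside 3.26% and 8.74% of all genes. Without ZT 8 replicate 2, 12 were positive, 8 were higher, beside 1.01% of all genes, and 10 stood above with no overlap, beside 6.90%. Without both, 17 of 18 were positive and 6 were higher, beside 0.781% of all genes, with a median of 0.12 beside 0.01. The fifth of these 5 was Pdia6, a disulfide isomerase gene, at 134, 149 and 144 and then 165, 166 and 174. Of the 13 sensors, transcription factors and degradation genes, 4 were positive, a share close to the 4648 of all 15106 genes. Their median was -0.05 beside -0.13. At an unadjusted p under 0.05, 0 were higher and 2 lower, beside 3.26% and 8.74% of all genes. Without both libraries, 8 of the 13 were positive. Ern1 and Atf6, which encode the sensors IRE1 alpha and ATF6, were among the lower genes at -0.67 (SE 0.26) and -0.48 (SE 0.21). Both had their highest value in ZT 8 replicate 2 and their lowest in ZT 20 replicate 3, and they were at -0.47 and -0.28 without the first of these libraries and at -0.13 and -0.06 without both.

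The cytosolic and mitochondrial heat shock list gave 15 positive of 31 and a median of -0.003 beside -0.13 for all genes. At an unadjusted p under 0.05, 7 genes were higher and 0 lower, beside 3.26% and 8.74% of all genes. Without ZT 8 replicate 2, 25 were positive, 7 were higher, beside 1.01% of all genes, and the median was 0.15 beside -0.045. Without both, 29 were positive, 5 were higher, beside 0.781% of all genes, and the median was 0.14 beside 0.01. Hspa1b, an inducible HSP70 gene, was at 5.02, 6.47 and 4.77 and then at 7.17, 7.88 and 8.66, with no overlap and a difference of 0.48 (SE 0.16), or 0.59 without ZT 8 replicate 2 and 0.53 without both. Hspa1a is a near-identical copy, so the split of reads between them is uncertain; it differed by 0.44 (SE 0.16), or by 0.60 without ZT 8 replicate 2 and 0.52 without both. Ahsa1, the gene of an HSP90 activator, was at 186, 224 and 195 and then at 227, 231 and 261, a difference of 0.25 (SE 0.09), or 0.33 without ZT 8 replicate 2. Cryab, a small heat shock protein gene, was at 236, 285 and 232 and then at 346, 301 and 462, a difference of 0.54 (SE 0.20), or 0.64 without ZT 8 replicate 2 and 0.46 without both. In Hspa1b, Ahsa1 and Cryab the ZT 20 libraries all stood above the ZT 8 libraries, while for Hspa1a the lowest ZT 20 value, 9.17, was under 9.44 in ZT 8 replicate 2.

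The cold-inducible genes went the opposite way. Rbm3, which encodes an RNA-binding protein induced by mild cooling (chromosome X, 8138975 to 8145880), was at 154, 164 and 134 and then at 102, 116 and 98. Cirbp, its relative, was at 223, 185 and 218 and then at 171, 177 and 164. Both were lower in all 3 ZT 20 libraries, by -0.51 (SE 0.15) and -0.28 (SE 0.13), by -0.45 and -0.37 without ZT 8 replicate 2, and by -0.40 and -0.34 without both libraries. Of the 29 splicing factor and CLK kinase genes, 1 was higher and 1 lower at an unadjusted p under 0.05, beside 3.26% and 8.74% of all genes. Tra2a, a splicing activator gene, was at 70.9, 81.9 and 87.6 and then at 105, 128 and 112, with no overlap and a difference of 0.51 (SE 0.14), or 0.55 without both libraries. Hnrnpdl differed by -0.46 (SE 0.17), and by -0.16 without both.

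Mfsd2a, which encodes the lysophospholipid transporter of the blood-brain barrier that carries docosahexaenoic acid into the brain (chromosome 4, 122946850 to 122961188), had the smallest p among the higher genes. It was at 25.4, 25.3 and 20.6 and then at 34.1, 34.5 and 37.4. The libraries of each time stayed close together and did not overlap, and the difference was 0.56 (SE 0.11, limma adjusted p = 0.373), 0.60 without ZT 8 replicate 2 and 0.56 without both. Plin4, which encodes a lipid droplet coat protein (chromosome 17, 56100591 to 56109803), was at 2.51, 4.46 and 1.36 and then at 4.81, 6.88 and 7.32, a difference of 1.03 (SE 0.34), or 1.33 without ZT 8 replicate 2 and 1.23 without both. Angptl4, which encodes an inhibitor of lipoprotein lipase, was at 7.81, 6.01 and 7.85 and then at 11.6, 10.3 and 13.8, a difference of 0.65 (SE 0.19), or 0.54 without ZT 8 replicate 2 and 0.43 without both.

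Of the 36 genes listed for fatty acid oxidation, lipid droplets and lipid transport, 35 were tested; 15 were positive, 4 were higher and 3 lower at an unadjusted p under 0.05, and the median was -0.03 beside -0.13 for all genes. The 3 of 35 lower are close to the 8.74% of all genes that were lower, while 3.26% of all genes were higher. The lipid droplet and lipase genes held 3 of the 4 higher genes among 8, the third being G0s2, a lipase inhibitor gene, which differed by 0.45 (SE 0.17) but by 0.22 without ZT 8 replicate 2 and 0.09 without both libraries. All 3 lower genes were among the 15 oxidation enzymes, of which 0 were lower without ZT 8 replicate 2 and 0 without both. Acadl and Bdh1, for mitochondrial oxidation and ketone metabolism, differed by -0.26 and -0.16 by -0.16 and -0.14 without ZT 8 replicate 2, and by -0.18 and -0.14 without both.

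**Figure D3:**
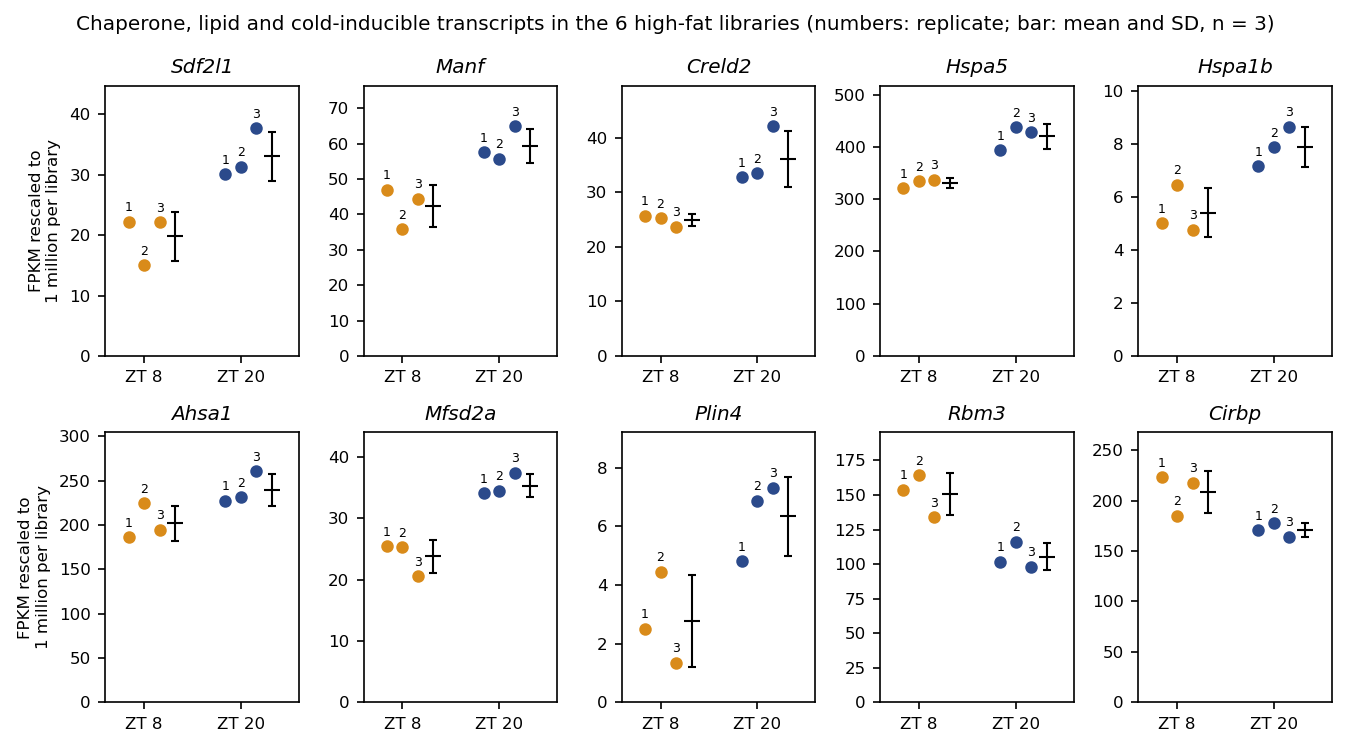
Rescaled FPKM (y axis, linear from 0) of 10 chaperone, lipid and cold-inducible transcripts in the libraries of ZT 8 (orange) and ZT 20 (blue); numbers give the replicate and black bars the mean and SD. In all 10 panels the 2 times do not overlap, with Rbm3 and Cirbp lower and the other 8 genes higher at ZT 20. The genes were chosen mostly by small p. Of their whole lists, 5 of 31 heat shock, 7 of 31 ER and 4 of 35 lipid genes stood above with no overlap, beside 3.79% of all genes.

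Genes of cholesterol and fatty acid synthesis stood mostly below 0, 30 of 32 tested, as did 10432 of all 15106 genes, with a median of -0.21 beside -0.13. At an unadjusted p under 0.05, 7 were lower and 0 higher, beside 8.74% and 3.26% of all genes. Hmgcs1, for the cytosolic HMG-CoA synthase of the cholesterol pathway, was at 193, 262 and 190 and then at 172, 180 and 138, with no overlap and a difference of -0.39 (SE 0.12), or -0.24 without ZT 8 replicate 2 and -0.12 without both. Dhcr7, Sc5d and Nsdhl, for later steps, differed by -0.33, -0.47 and -0.31, by -0.21, -0.25 and -0.24 without ZT 8 replicate 2, and by -0.15, -0.07 and -0.15 without both. Without ZT 8 replicate 2, 30 were still negative but 1 was lower at that p, beside 151 of all 15107 genes. Without both, 21 were negative and 1 was lower, beside 0.516% of all genes, and the median was -0.04 beside 0.01.

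Nuclear-encoded oxidative phosphorylation genes and ribosomal protein genes gave the highest list medians of the metabolic and protein synthesis lists, and both depended on the same libraries. Of 38 oxidative phosphorylation genes, 33 were positive and 8 were higher at an unadjusted p under 0.05, beside 3.26% of all genes. Their median was 0.31 beside -0.13 for all genes. It was 0.04 without ZT 8 replicate 2 and -0.03 without both, with 0 genes under that p in either. Cox5a, for a subunit of cytochrome c oxidase, was at 472, 235 and 520 and then at 549, 521 and 658, so ZT 8 replicate 2 held less than any other library. Of 55 ribosomal protein genes, 54 were positive with a median of 0.30, which was 0.06 without ZT 8 replicate 2 and -0.04 without both. Their summed level was 74376, 39854 and 67522 at ZT 8 and 73472, 64809 and 86775 at ZT 20. The median transcript length of these lists was 1139 and 1120 nucleotides, against 4128 for the core clock list. Glycolysis and TCA cycle genes had a median of -0.08 beside -0.13, with 0 higher and 3 lower of 32, a share close to the 8.74% of all genes. Cs, the citrate synthase gene, had the lowest p of them, at 259, 334 and 267 and then at 250, 250 and 201, and its difference of -0.29 (SE 0.11) was -0.17 without ZT 8 replicate 2 and -0.07 without both libraries.

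**Figure D4:**
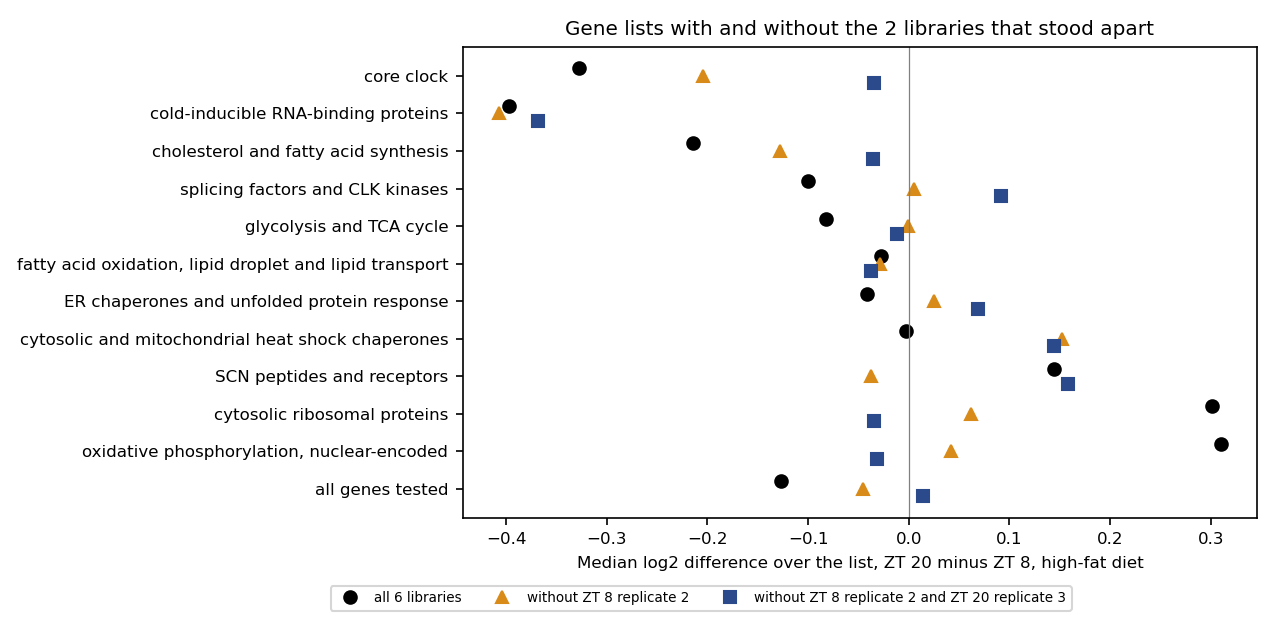
Median log2 difference, ZT 20 minus ZT 8 (x axis), over 11 gene lists and all tested genes, with all 6 libraries (circles), without ZT 8 replicate 2 (triangles) and without that library and ZT 20 replicate 3 (squares). The core clock, cholesterol, ribosomal and oxidative phosphorylation medians move to within 0.04 of 0 without both libraries, while the cold-inducible median moves from -0.40 to -0.37 and the heat shock median from -0.003 to 0.14.

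SCN peptides and receptors spread widely between libraries of the same time. Of 27 genes, 14 were positive, and 1 was higher and 1 lower at an unadjusted p under 0.05, beside 3.26% and 8.74% of all genes. Prok2, the gene of a secreted output signal of the SCN, was at 3.57, 2.26 and 2.62 and then at 1.76, 1.24 and 1.13, with no overlap and a difference of -0.68 (SE 0.31), or -0.78 without ZT 8 replicate 2. Sst, the somatostatin gene, was at 581, 312 and 392 and then at 545, 575 and 873, a difference of 0.65 (SE 0.29) that was 0.44 without ZT 8 replicate 2 and 0.23 without both libraries. Avp differed by 1.49 (SE 0.73) with all libraries, by 0.56 (SE 0.64) without ZT 8 replicate 2 and by 0.27 (SE 0.70) without both. Vip, whose product couples SCN neurons, was at 37.3, 6.30 and 20.6 and then at 39.6, 24.4 and 12.9, and its difference turned from 0.42 (SE 0.67) to -0.24 without ZT 8 replicate 2.

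Markers of neighbouring tissue also varied between libraries of the same time. Among 27 genes of other hypothalamic nuclei, 26 were tested and 18 were positive, with a summed level of 4211, 1523 and 3340 at ZT 8 and 4274, 4552 and 7614 at ZT 20. Hcrt, the orexin gene of the lateral hypothalamus, ran from 3.77 in ZT 8 replicate 3 to 683 in ZT 20 replicate 3. Cartpt was at 90.7, 44.0 and 90.9 and then 87.6, 139 and 227, and Lhx6, a marker of zona incerta and other GABA neurons, at 26.6, 52.9 and 35.2 and then 22.7, 15.9 and 9.23. The part of these tissue markers in the results above was not tested. Pan-neuronal, astrocyte, oligodendrocyte and microglia lists had medians of -0.14, 0.001, -0.07 and -0.10 beside -0.13 for all genes. At an unadjusted p under 0.05, 2 of 14 pan-neuronal genes were lower, and 1 of 15 astrocyte genes was higher and 1 lower. Of 16 oligodendrocyte genes 0 were under that p, and of 17 microglia genes 1 was lower. Of all genes, 3.26% were higher and 8.74% lower. Choroid plexus, meninges and fibroblast, thalamus, cortex and striatum, and endothelial and mural lists had lower medians, of -0.42, -0.42, -0.32 and -0.26, which without both libraries were -0.19, -0.015, -0.06 and 0.005. The 12 liver genes were all positive, but their summed level was 95.0, 228 and 50.9 and then 511, 183 and 57.9, which overlapped, and 0 were under that p. Without both libraries 3 of the 12 liver genes were higher at that p, beside 0.781% of all genes, and the list's median went from 0.98 to 2.72. The 14 blood rows summed to 9542, 2263 and 6206 and then 5567, 3250 and 7810.

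The other genes with the smallest p fell into no single list. Higher at ZT 20 were Mrps6, a mitochondrial ribosomal protein gene (76.6, 49.7 and 85.5, then 101, 105 and 116), Mob2, a kinase regulator gene (37.8, 35.8 and 37.1, then 44.4, 44.3 and 47.0), Taf10, for a subunit of TFIID (74.0, 53.4 and 81.1, then 94.4, 90.2 and 108), and Med21, for a Mediator subunit (69.2, 49.6 and 65.8, then 81.4, 76.2 and 87.6). Mob2 had the tightest groups of these, with a difference of 0.29 (SE 0.07) that was 0.24 without both libraries. Ttc32 differed by 0.66 (SE 0.17) and Cdk2ap2 by 0.32 (SE 0.09). Without both libraries Mrps6 went from 0.63 to 0.34, Taf10 from 0.50 to 0.25, Med21 from 0.42 to 0.22, Ttc32 to 0.38 and Cdk2ap2 to 0.18. Lower at ZT 20 were Tfrc, the transferrin receptor gene (61.1, 59.3 and 63.7, then 47.1, 48.7 and 31.0), Hmgb3, for a chromatin protein (72.1, 85.0 and 63.3, then 57.5, 51.7 and 47.4), and Gper1, for a membrane estrogen receptor (3.15, 3.32 and 2.44, then 1.92, 1.73 and 1.63). Rfx4, for a ciliary transcription factor, differed by -0.51 (SE 0.12), Parn, for a deadenylase, by -0.41 (SE 0.10), and Nsun6, for an RNA methyltransferase, by -0.53 (SE 0.13). Without both libraries Rfx4 was at -0.31, Parn at -0.23 (-0.27 without ZT 8 replicate 2 alone), Nsun6 at -0.36, Tfrc at -0.38 against -0.56, Hmgb3 at -0.31 against -0.48 and Gper1 at -0.42 against -0.52. Btg3, whose symbol is on more than 1 row, so that its reads are uncertain, differed by -0.92 (SE 0.22), or -0.76 without both. None of these 13 genes overlapped between the times, and each had a limma adjusted p of 0.373. They were picked by their small p, so the lack of overlap adds no support. Of all genes, 3.79% stood above and 5.40% below with no overlap.

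The same contrast under normal chow gave each gene's own value for comparison. There limma called 13 of 15150 genes (0.0858%), with 1174 (7.75%) under an unadjusted p of 0.05, 858 (5.66%) higher and 316 (2.09%) lower, and an all-gene median of 0.06. Dbp differed by -1.18 under chow (adjusted p = 0.00106), Nr1d1 by -0.51 (adjusted p = 0.0359), Rbm3 by -0.56 (adjusted p = 0.0168) and Plin4 by 1.31 (adjusted p = 0.0382), all called there and of the same sign as under the high-fat diet. Sdf2l1 differed by 0.69, Mfsd2a by 0.57 and Hspa5 by 0.50, each missing the threshold. Per2, at -0.56 under the high-fat diet, was at 0.14 under chow, and Per1 at -0.47 was at -0.03. These high-fat differences of Per2 and Per1 shrank when both libraries that stood apart were left out, as given above. The core clock list had 17 positive of 30 and a median of 0.06 under chow. Under the high-fat diet it had 3 positive and a median of -0.33, or 12 positive and -0.04 without both libraries. Under chow 30 of 31 heat shock genes were positive, 23 were higher at an unadjusted p under 0.05, and the median was 0.30. In the ER list 27 of 31 were positive and 13 higher. Beside both lists, 5.66% of all genes were higher under chow.

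The difference between the diets was tested directly, as the high-fat difference minus the chow difference over all 36 libraries. Limma called 0 of 15173 genes, and 3278 (21.6%) had an unadjusted p under 0.05, 643 (4.24%) with a positive and 2635 (17.4%) with a negative value. Without high-fat ZT 8 replicate 2 limma called 0 and 694 (4.57%) were under that p, 142 (0.936%) positive and 552 (3.64%) negative, and without both libraries 153. For Dbp the difference between diets was 0.16 (SE 0.21), for Nr1d1 -0.005 (SE 0.13), for Mfsd2a -0.02 (SE 0.16), for Sdf2l1 0.04 (SE 0.21) and for Rbm3 0.05 (SE 0.18), each smaller than its error. Without high-fat ZT 8 replicate 2 these were 0.11, 0.13, 0.03, -0.14 and 0.12. For Per2 it was -0.70 (SE 0.28), or -0.60 (SE 0.30) without that library. Its value without both libraries is not given. The 5 genes of smallest p were Bcl7c at 0.81, Lage3 at 0.70, Npy2r, a neuropeptide Y receptor gene, at -0.99, Zfp493 at -0.69 and Slx4ip at -1, all with a limma adjusted p of 0.221. Without high-fat ZT 8 replicate 2 they were at 0.58, 0.50, -0.86, -0.52 and -0.82, and without both libraries at 0.44, 0.45, -0.67, -0.51 and -0.56. Npy2r was at 20.3, 29.9 and 25.1 and then at 18.6, 22.7 and 13.5 under the high-fat diet, and at 17.8 ± 2.33 and then 26.2 ± 1.95 (SD, n = 3) under chow.

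Levels at all 6 times are given as a description, since most of these genes were named for their difference between ZT 20 and ZT 8. Mean Dbp was highest at ZT 8, at 88.9 ± 9.8 (SD, n = 3), and lowest at ZT 20, at 43.3 ± 4.6, close to 46.4 ± 3.5 at ZT 0. Nr1d1 was at 108 ± 18.5 at ZT 8 and 102 ± 8.3 at ZT 4, but without ZT 8 replicate 2 its ZT 8 mean was 97.8, below ZT 4. At ZT 20 it was at 74.8 ± 4.2, beside 74.5 ± 3.9 at ZT 16. Ciart averaged 18.8 at ZT 8, or 16.2 without that library, beside 17.2 at ZT 4 and 18.3 at ZT 12. Per2 averaged 15.6 at ZT 8, or 14.3 without it, beside 14.9 at ZT 16. Sdf2l1 was lowest at ZT 8, with 19.8 ± 4.1, and highest at ZT 0, with 36.1 ± 4.8, which overlapped 33.1 ± 4.1 at ZT 20. Mfsd2a was lowest at ZT 4, with 19.9 ± 1.4, and highest at ZT 16, with 39.8 ± 4.9. Rbm3 was highest at ZT 8, with 151 ± 15, and lowest at ZT 0, with 87.7 ± 15, so ZT 20, with 105 ± 9.6, was not its minimum. Arntl was highest at ZT 0, with 20.2 ± 1.1, and the other 5 times lay between 16.1 and 18.

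**Figure D5:**
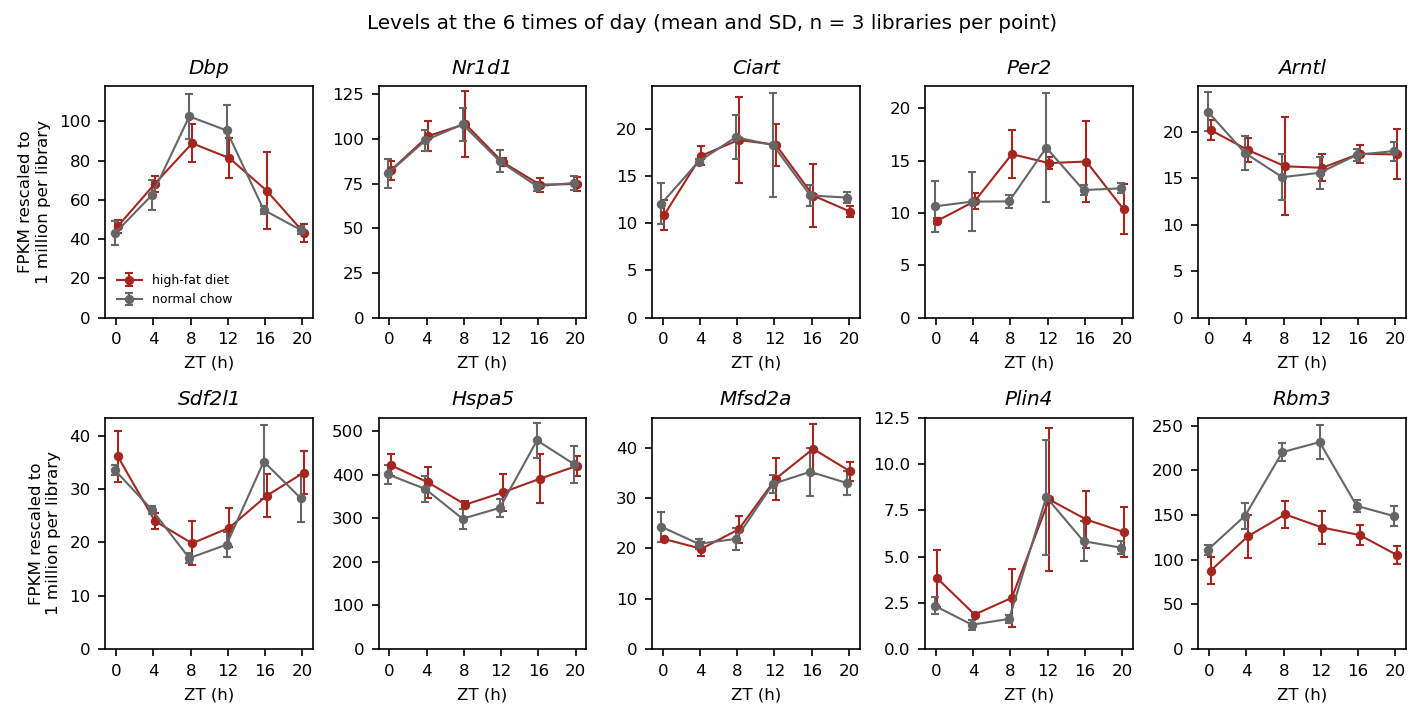
Mean rescaled FPKM (y axis, linear from 0) with SD over 3 libraries at 6 times of day (x axis, ZT in hours) for 10 genes, under high-fat diet (red) and normal chow (grey). Under the high-fat diet Dbp, Rbm3, Per2, Nr1d1 and Ciart are highest at ZT 8, the last 3 only with ZT 8 replicate 2 included, Sdf2l1 and Hspa5 are lowest at ZT 8, and the Rbm3 mean is lower under the high-fat diet than under chow at every time.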

How the data were processed

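SCN-enriched tissue was dissected, total RNA was extracted, and stranded mRNA libraries were made, per the labels' protocols. The submitters' processing notes name Trimmomatic, TopHat and Cufflinks and the builds mm10 and GRCm38, with no versions. The deposited tables, 1 per diet, have 24883 rows by gene symbol and no unit in their headers; the values are taken as FPKM made by the authors with Cufflinks, inferred from the named tool and the values. FPKM keeps no read counts here, so depth is unknown and no interval from counts is given.

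Each column was rescaled to a sum of 1000000. Deposited sums ran from 302899 to 432336 in the 6 libraries. Genes with a mean of at least 1 over the libraries of the fit were tested on log2(value + 1) with limma 3.58.1 in R 4.3.3 (trend in the prior variance), with 6 groups of the 18 high-fat libraries in 1 fit, or 12 groups of all 36 for the difference between diets, and Benjamini-Hochberg adjustment over all tested rows. A gene was called at an adjusted p under 0.05. The fit was tested on simulated data with independent errors and the same spread of a gene in every library. That test does not cover shifts of a whole library. SE is limma's.

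The genes named are the 10 of smallest p in each direction (with models without a gene symbol, such as OTTMUSG00000016609, left out), the core clock genes (kinases and ROR genes mostly as counts), up to 4 of smallest p in each list described, and 5 for the difference between diets; others are named for their role. 1 gene that this rule names is not reported here. The 31 lists and the choice of comparison were made with earlier results of these data known. Of the 31 lists, the mitochondrially encoded list matched no row. Transcript lengths are the longest GENCODE M21 transcript of a gene, found for 96.1% of tested genes. Promoters are from RefSeq (GRCm38.p6). Alternatives changed the pseudocount, filter, scaling, weights, libraries and replicate block. Leaving out ZT 8 replicate 2 and ZT 20 replicate 3 together was chosen after seeing the data.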

Additional observations from a re-analysis of the deposited data

How the results depend on the processing

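No gene was called with a pseudocount of 0.1, no filter, a minimum mean of 5, median-of-ratios scaling, values as deposited, the replicate block or any single library left out (0 to 0). Calls were made with array weights (5, by limma's gene-by-gene method: Cryba4, Dbp, Mfsd2a, Nr1d1 and OTTMUSG00000016609), with only the 6 libraries (2: Mir546 and Snord15b) and with all 36 libraries (2: Dbp, adjusted p = 0.00271, and Nr1d1, adjusted p = 0.0462). The number of genes at an unadjusted p under 0.05, 1814, ran from 297 (without ZT 20 replicate 3) to 4136 (without ZT 8 replicate 1) on leaving out 1 library, being 303 without ZT 8 replicate 2 and 4057 without ZT 20 replicate 2. It was 303 with only the 6 libraries, 3294 with all 36, 208 with the 5 left of them and 196 without both libraries. For the difference between diets the calls were 0 to 1 on leaving out 1 library (Lage3, without high-fat ZT 8 replicate 1) and 482 with array weights, and genes at an unadjusted p under 0.05 ran from 694 to 5226, with 779 without high-fat ZT 20 replicate 3, 5150 without ZT 20 replicate 2 and 153 without both.

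Among single genes, Arntl ran from -0.015 (without ZT 8 replicate 1) to 0.37 on leaving out 1 library, Npas2 from -0.48 to 0.16 and Vip from -0.24 to 0.95. Clock turned to 0.041 without both libraries, Cry1 to 0.005 with values as deposited, and Vip to -0.24 without ZT 8 replicate 2, also with only the 5 libraries. Npas2 turned to 0.18 with array weights, 0.16 without ZT 8 replicate 2, in either fit, and 0.27 without both. The cause was not tested. No label says whether replicate numbers pair the samples. Deviations of same-numbered libraries correlated at -0.06, 0.31 and 0.14, and ZT 8 replicate 1 correlated best with ZT 20 replicate 3, at 0.33. Deviations within a group of 3 depend on each other, so these correlations cannot decide whether samples were paired. With the replicate as a block, 0 genes were called and 2243 had an unadjusted p under 0.05. Depth is unknown, and 3 libraries per group limit the precision.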

Other observations

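Among 20 tested glucocorticoid-responsive genes, 12 were positive. At an unadjusted p under 0.05 (limma), 1 was higher and 2 lower, close to the 3.26% and 8.74% of all genes. Cdkn1a, which encodes the cell cycle inhibitor p21, was at 8.26, 6.86 and 6.75 at ZT 8 and 12.9, 11 and 11.8 at ZT 20, with no overlap. Its difference was 0.64 (SE 0.21), 0.61 without both libraries that stood apart, and 0.94 under chow (limma adjusted p = 0.0439). Klf9, a glucocorticoid-induced transcription factor gene, differed by -0.57 (SE 0.23), and by -0.15 without both libraries. Light- and activity-induced genes were 10 positive of 27 tested; Gadd45g, for a stress sensor, differed by 0.63 (SE 0.21), and by 0.19 without both.

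In NAD, serine and one-carbon metabolism, 6 of 23 genes were positive. At an unadjusted p under 0.05, 1 was higher and 3 lower, beside 3.26% and 8.74% of all genes. Nampt, for the rate-limiting enzyme of NAD salvage, was at 30.9, 49.0 and 32 and then at 27.8, 32.6 and 24.2, a difference of -0.37 (SE 0.14) that was -0.06 without both libraries. Sirt3, for a mitochondrial deacetylase, differed by 0.35 (SE 0.14), and by 0.08 without both. In the inflammation and interferon list 11 of 27 tested were positive and 1 was lower at that p, beside 8.74% of all genes. It was Il6st, for the signalling subunit of interleukin 6 family receptors, at -0.47 (SE 0.21) and at -0.01 without both.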
